A study of Mus musculus with 2 samples.

Results

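Of the 2204 peaks called for histone H3 β-hydroxybutyrylated at lysine 9 (H3K9bhb), 336 (15.2%, exact 95% interval 13.8 to 16.8) had their summit 500 to 2000 bp inside a protein-coding gene and no end of a second protein-coding gene within 2 kb. They are called inner peaks here. Each peak was placed by 1 summit, the one with the lowest coordinate, and distances were counted from the outer boundaries of protein-coding genes in RefSeq for mouse build mm10 (GRCm38.p6). The 336 summits lay in 330 genes. The data are 1 ChIP library from CD8+ T cells and 1 input library, with 70 M reads per experiment by the labels, and only the called ChIP peaks were used. Splenocytes of OT-I mice (C57BL/6 background, with a T cell receptor transgene against an ovalbumin peptide) received 200 ng/ml of that peptide and 10 ng/ml interleukin-2 for 3 days. They were then held in 10 ng/ml interleukin-15 for 4 days, which programs a memory-like state in culture, and given β-hydroxybutyrate for 3 days (dose not given in the sources used here). Both libraries are labelled as treated, and no second ChIP library was analysed here. A peak therefore marks a called place in treated cells, with no replicate and no test of a response, and the intervals below cover counting error only.

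β-Hydroxybutyrate is the main circulating ketone body, made in the liver during fasting and on ketogenic diets. Cells can turn it into an acyl-CoA that is used to modify histone lysines, and H3K9bhb has been linked to active genes in starved liver. Acyl marks of H3 lysine 9 usually lie on the nucleosomes that flank the start of a transcribed gene, and the first nucleosomes downstream of the start carry much of the signal. Many mammalian starts lie in CpG islands, stretches rich in CG pairs, and many genes have several starts. The outer boundary of a gene in an annotation is that of its longest transcript model, which need not be the start in use.

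The sequences below show what lay upstream of and beneath inner peaks. They are RefSeq promoter windows of build GRCm38.p6, read 5′ to 3′ on the strand of the gene, with CG pairs in capitals. The first set gives the 250 bases before the annotated start nearest to the summit, for the 5 highest-scoring inner peaks with such a start. Rbm6 and Fam207a differ most within this set, with 14 CG pairs in the first and 32 in the other.
Rbm6, chr9:107872820-107873069, minus strand: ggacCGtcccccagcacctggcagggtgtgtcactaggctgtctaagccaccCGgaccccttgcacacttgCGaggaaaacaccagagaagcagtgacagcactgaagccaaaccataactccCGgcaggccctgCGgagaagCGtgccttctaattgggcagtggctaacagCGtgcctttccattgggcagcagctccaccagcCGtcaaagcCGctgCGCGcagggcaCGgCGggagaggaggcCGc
Tagap1, chr17:6961157-6961406, minus strand: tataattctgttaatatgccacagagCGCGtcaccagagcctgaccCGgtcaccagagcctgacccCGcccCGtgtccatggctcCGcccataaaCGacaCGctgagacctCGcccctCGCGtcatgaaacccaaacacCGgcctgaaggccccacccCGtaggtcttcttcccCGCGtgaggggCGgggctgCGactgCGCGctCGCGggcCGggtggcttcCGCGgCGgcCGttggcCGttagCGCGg
Fam207a, chr10:77515814-77516063, minus strand: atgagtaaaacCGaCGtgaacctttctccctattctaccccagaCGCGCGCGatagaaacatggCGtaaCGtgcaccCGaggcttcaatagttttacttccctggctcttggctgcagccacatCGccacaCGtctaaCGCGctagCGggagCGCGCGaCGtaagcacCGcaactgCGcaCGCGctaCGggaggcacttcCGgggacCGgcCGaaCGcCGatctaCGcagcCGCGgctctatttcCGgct
Gm9222, chr12:17881623-17881872, plus strand: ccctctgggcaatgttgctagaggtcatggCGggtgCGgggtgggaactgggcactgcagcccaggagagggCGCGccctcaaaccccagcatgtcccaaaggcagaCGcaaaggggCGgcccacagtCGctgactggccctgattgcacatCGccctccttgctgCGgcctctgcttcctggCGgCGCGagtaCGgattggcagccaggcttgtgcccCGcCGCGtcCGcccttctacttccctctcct
Gcgr, chr11:120530477-120530726, plus strand: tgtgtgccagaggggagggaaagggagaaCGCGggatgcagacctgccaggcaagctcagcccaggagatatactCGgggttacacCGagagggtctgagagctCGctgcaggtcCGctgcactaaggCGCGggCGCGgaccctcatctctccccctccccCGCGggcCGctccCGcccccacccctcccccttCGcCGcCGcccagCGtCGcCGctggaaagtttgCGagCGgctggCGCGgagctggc

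The second set gives 101 bases centred on the summit, for inner peaks where these 101 bases lay wholly within the 250 bases before the nearest start. There were 22 such summits, and the 5 with the highest scores are printed. The 22 stretches held 9 to 19 CG pairs (median 13) and 65.3 to 83.2% G or C (median 74.8%). The middle 101 bases of the upstream part of all 21263 windows had a median of 3 CG pairs and 55.4% G or C.
Map4, chr9:109931641-109931741, plus strand: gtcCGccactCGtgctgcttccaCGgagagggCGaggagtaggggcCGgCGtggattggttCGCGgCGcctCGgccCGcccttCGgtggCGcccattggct
Tubgcp3, chr8:12672167-12672267, minus strand: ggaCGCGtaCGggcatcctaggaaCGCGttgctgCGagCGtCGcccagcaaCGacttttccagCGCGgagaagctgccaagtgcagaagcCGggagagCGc
Aktip, chr8:91133815-91133915, minus strand: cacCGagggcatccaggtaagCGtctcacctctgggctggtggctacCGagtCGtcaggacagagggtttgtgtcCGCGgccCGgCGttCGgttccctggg
Tcf12, chr9:72111220-72111320, minus strand: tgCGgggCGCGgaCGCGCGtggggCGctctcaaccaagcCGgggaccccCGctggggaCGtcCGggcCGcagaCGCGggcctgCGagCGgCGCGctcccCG
Ppara, chr15:85735582-85735682, plus strand: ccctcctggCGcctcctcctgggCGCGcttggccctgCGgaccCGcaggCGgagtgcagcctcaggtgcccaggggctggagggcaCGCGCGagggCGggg

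Inner peaks formed the tail of a distribution that fell off from the gene boundary. Single-gene summits inside genes numbered 634 within 250 bp of the boundary and 344 from 250 to 500 bp. The count was then 117 from 500 to 750 bp, 90 to 1000 bp, 37 to 1250 bp, 35 to 1500 bp, 30 to 1750 bp and 27 to 2000 bp. Inner peaks were thus 25.6% of the single-gene summits within 2 kb inside a boundary. Their median distance was 877 bp, with quartiles of 665 and 1288.5 bp, and 207 of the 336 lay under 1000 bp. Near the lower bound, Dip2c and Chd8 at 503 bp and Stk3 at 505 bp (scores 3.29, 2.096 and 2.12) were inside it. Ube3c and Hs6st3 at 499 bp and Nkx2-5 at 496 bp (3.50, 5.51 and 3.50) were outside it. At the upper bound Vwa5b2 at 1978 bp, Nr2f6 at 1979 bp and Oma1 at 1995 bp (4.93, 3.66 and 8.34) were kept. Esyt2 at 2027 bp, Zic5 at 2032 bp and Mtmr2 at 2040 bp (3.06, 8.23 and 6.04) were not.

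**Figure D1:**
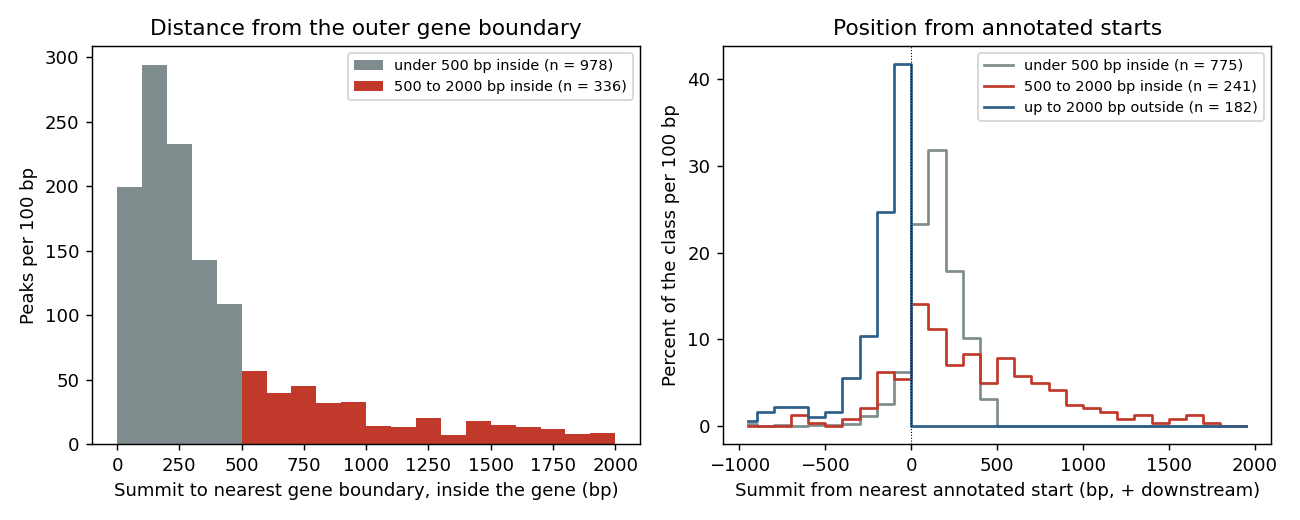
Left, number of single-gene summits per 100 bp against the distance from the nearest gene boundary inside the gene, for 978 peaks under 500 bp and 336 inner peaks. Right, percent of each class per 100 bp against the position from the nearest annotated start of the gene, for the peaks at starts; the inner peaks spread over both the first 500 bp downstream of a start and the stretch beyond it.

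The next question was which end of the gene the inner peaks were at. The strand of the gene was known for 272 of the 336 (81.0%). Of these, 241 (88.6%, interval 84.2 to 92.1) were nearer to the start of the gene and 31 to the end of its transcript. Peaks under 500 bp inside were at the start in 775 of 788 cases (98.4%, 97.2 to 99.1), and single-gene peaks up to 2000 bp outside in 182 of 187 (97.3%, 93.9 to 99.1). The interval of the inner peaks overlapped neither. With an outer bound of 1000 bp the share at starts was 92.2% (87.1 to 95.8), and with no second gene end within 5 kb it was 92.1% (88.0 to 95.2). Both of these intervals overlapped that of the single-gene peaks outside, as given above, but not that of the peaks under 500 bp inside.

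Measured from annotated transcript starts instead of gene boundaries, many inner peaks were close to a start. All annotated starts in the text and figures are those of a RefSeq promoter table, which need not hold every start of a gene. It held a start at the gene boundary for 64 of the 241 inner peaks at the start side (26.6%, 21.1 to 32.6). A boundary without a tabled start was not counted as a start. Of the 241 at the start side, 145 (60.2%, 53.7 to 66.4) had a start of their gene within 500 bp of the summit, and 110 (45.6%) were 0 to 500 bp downstream of one. For peaks under 500 bp inside, 750 of 775 (96.8%) had a start within 500 bp, a share set largely by the rule of that class. Peaks inside a gene over 2000 bp from any end and nearer to its start are not bound in this way. Of these, 89 of 155 (57.4%, 49.2 to 65.3) had a start within 500 bp, and their median summit was 153 bp downstream of the nearest start. The median inner summit was 265 bp downstream of its nearest start (quartiles 17 and 638 bp) and 859 bp from the boundary, against 141 bp and 191 bp for the peaks under 500 bp. Another 82 inner peaks had their nearest start 503 to 1739 bp upstream. For the last 14 the nearest start in the table was over 500 bp downstream of the summit, up to 106798 bp for Dlgap4, a scaffold protein of synapses.

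The boundary of these genes often lay outside their first tabled start. It was over 500 bp from that start for 105 of the 241 (43.6%, 37.2 to 50.1), against 34 of 775 (4.39%, 3.06 to 6.08) for peaks under 500 bp inside and 13.5% of the 17492 protein-coding genes with a start in the table. Genes with a long lead between boundary and start enter the set more easily by the way distances were counted, so this is a description of the set. The same genes had several tabled starts more often than those of peaks under 500 bp inside, but less often than those of peaks deeper in genes. A boundary that is not itself a tabled start was not counted. The shares below thus describe the table and not how many genes have several starts. The share was 84 of 272 (30.9%, 25.4 to 36.7), against 146 of 788 (18.5%, 15.9 to 21.4) for peaks under 500 bp inside. It was 106 of 225 (47.1%, 40.4 to 53.9) for peaks inside a gene over 2000 bp from any end, and 15.8% of all genes in the table. The way distances were counted bears on this share as well. Gcgr, which encodes the glucagon receptor, had its summit 1586 bp from the boundary and 44 bp downstream of its start. Oma1, a mitochondrial protease, was 1995 bp from the boundary and 24 bp from a start. Ptpn4, a protein tyrosine phosphatase, was 521 bp from the boundary and 7 bp from its start. Vegfa, the vascular growth factor, was of the other kind, with 1739 bp to both the boundary and the nearest start. Foxo1, a forkhead factor needed for T cell quiescence and memory, was too, with 1550 bp to both.

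**Figure D2:**
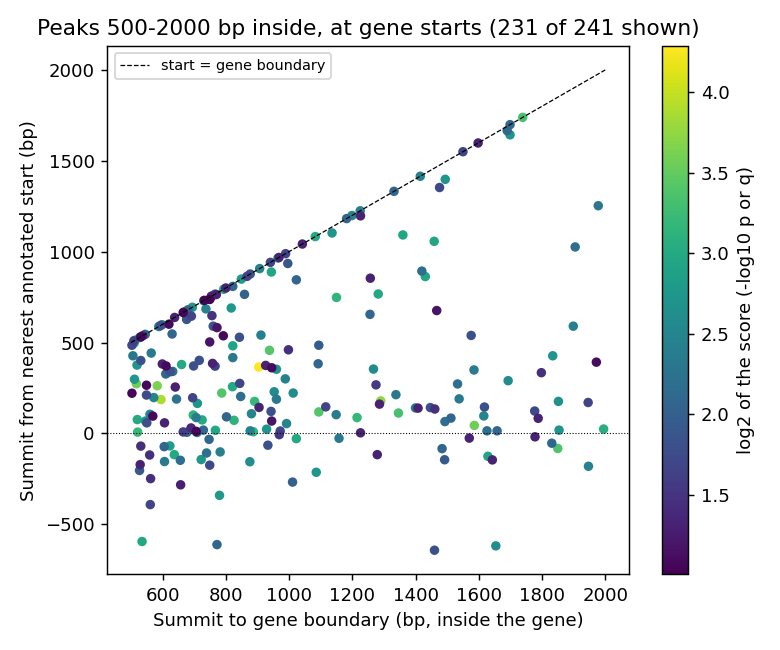
Each point is an inner peak at a gene start, with its distance from the gene boundary on the x axis, its position from the nearest annotated start on the y axis (0 is the start, positive is downstream, both in bp) and the log2 of its score as colour. Points on the dashed line have the boundary as their nearest start, and points near the dotted line lie at a start farther inside; 231 of the 241 peaks fall in the plotted range.

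Promoters nearest to inner peaks were rich in CG pairs. Windows of 300 bases, from 250 before to 50 after the start, were compared by their CpG ratio, the count of CG pairs over that expected from the C and G content. The 239 windows nearest to inner peaks at starts had a median ratio of 0.86 (quartiles 0.685 and 0.996) and 68.0% G or C. The 773 windows of peaks under 500 bp inside had 0.82 (0.71 and 0.94) and 66.0%, and all 21263 windows of protein-coding genes had 0.57 (0.23 and 0.83) and 56.3%. A ratio of at least 0.6 with at least 50% G or C, limits chosen after the values were seen, held for 82.0% of inner-peak windows (76.5 to 86.7), 86.4% (83.8 to 88.8) and 45.1% respectively. Among the inner peaks it held for 93.8% of 145 windows with the summit within 500 bp of the start (88.5 to 97.1). Where the summit was over 500 bp downstream it held for 70.7% of 82 windows (59.6 to 80.3).

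Short motifs were searched as exact letters on both strands of the same windows. The GC box GGGCGG was in 74.1% of inner-peak windows (68.0 to 79.5), 79.8% of those of peaks under 500 bp and 46.2% of all windows. The TATA box TATAAA was in 4.18% (2.02 to 7.56), 5.82% and 12.6%. TGCGCA, the core of the NRF1 site, was in 10.5% (6.88 to 15.1) of inner-peak windows, near the 9.74% of all windows and below the 17.3% (14.7 to 20.2) of peaks under 500 bp, with intervals that overlap slightly. The forkhead motif GTAAACA was in 4.18% (2.02 to 7.56) against 3.01% of all windows. CCGGAA of ETS factors was in 20.5% against 18.7%, the E-box CACGTG in 11.7% against 7.84%, and TGACGT of CREB-like factors in 9.62% against 8.49%. In the same order, these motifs were in 23.7%, 11.3% and 10.7% of the windows of peaks under 500 bp inside. The share in all windows lay inside the interval of the inner-peak windows for CCGGAA (15.6 to 26.2) and TGACGT (6.20 to 14.1) and just under it for CACGTG (7.93 to 16.5). All the motifs searched except the TATA box and the forkhead motif hold a CG pair, the windows differ in CG content, and its part in these shares was not tested.

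**Figure D3:**
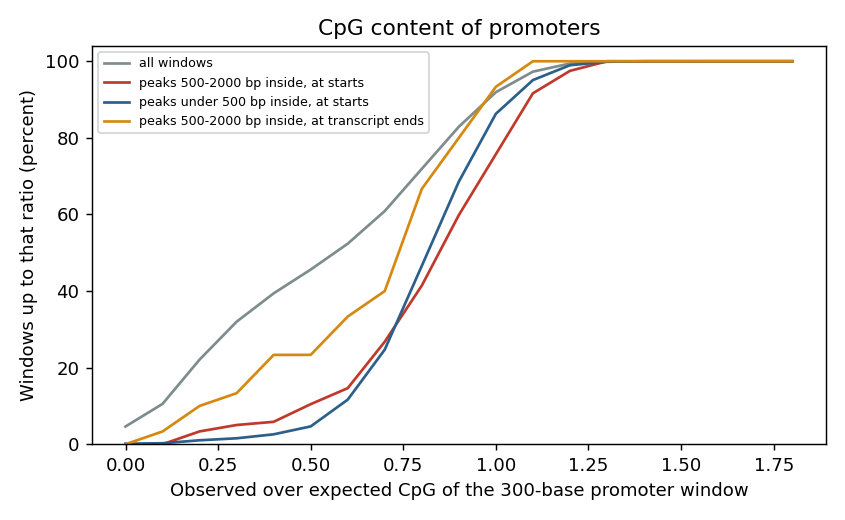
Cumulative percent of promoter windows (y axis) up to a given observed over expected CpG ratio (x axis) for all protein-coding windows, for the windows nearest to inner peaks and to peaks under 500 bp inside at starts, and for inner peaks at transcript ends. The inner-peak and under-500 bp curves run close together and to the right of all windows, and the transcript-end curve lies between them and all windows over most of the range.

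Inner peaks had lower scores than peaks nearer the boundary. The score is the −log10 p or q value the authors deposited for each summit. For inner peaks its median was 4.26, the quartiles were 3.17 and 6.08, and values ran from 2.012 to 19.5. The median was 5.11 for peaks under 500 bp inside, 4.92 for single-gene peaks outside and 4.54 for peaks deeper in genes. A score over 5, a round limit chosen after seeing the data, was reached by 143 inner peaks (42.6%, 37.2 to 48.0), against 531 of 978 peaks under 500 bp inside (54.3%, 51.1 to 57.5). Within the inner peaks the median was 4.54 for the 145 with a start within 500 bp, 4.24 for the 82 farther downstream of a start and 4.59 for the 31 at transcript ends. Scores were coarse, and the 336 peaks shared 116 distinct values.

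**Figure D4:**
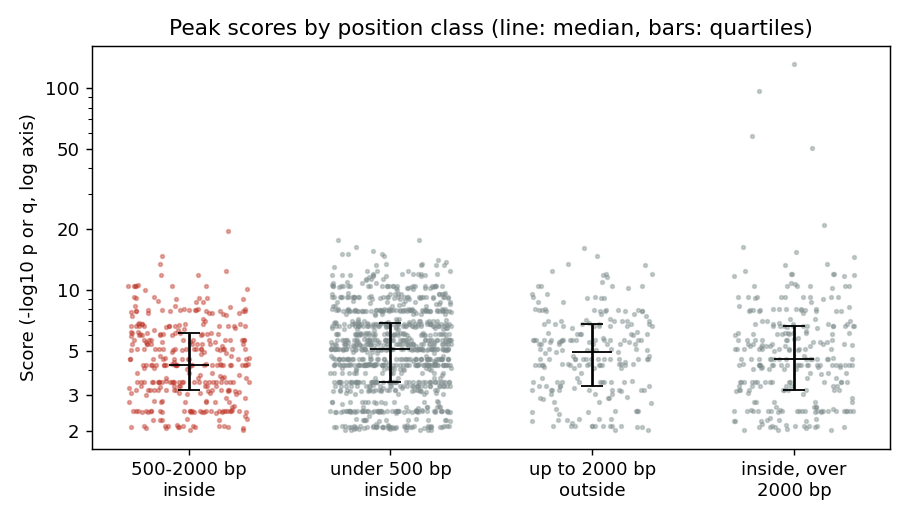
Scores (−log10 p or q, log axis) of single peaks by position class, with the median as a line and the quartiles as bars. The inner peaks have the lowest median, 4.26, and none of their scores passes 19.5, while 5 peaks deeper in genes pass 20.

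The inner peak with the highest score was in Rbm6 (19.5), an RNA-binding protein and splicing regulator, at chr9:107872454, 365 bp downstream of its start. Tagap1 (14.7), a GTPase-activating protein named for T cell activation, followed with its summit 186 bp downstream of its start at chr17:6960970. A close copy of this gene, Tagap, lies on the same chromosome, and how reads with several matches were treated was not analysed here. Fam207a (13.4), the predicted gene Gm9222 (12.5), Gcgr (11.8) and Xrn2 (11.8), an exoribonuclease of transcription termination, came next, with summits 179, 262, 44 and 273 bp downstream of a start. Trim27 (10.6), a ubiquitin ligase, Rbm47 (10.5), an RNA-binding protein, and Mrpl23 (10.5), a protein of the mitochondrial ribosome, had summits 457, 118 and 222 bp downstream.

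Farther down the 20 highest-scoring inner peaks, Map4 (10.4), a microtubule-associated protein, had its summit 83 bp upstream of a start that is itself inside the gene. Lrba (9.95), which protects the inhibitory receptor CTLA-4 from degradation, Tsga10 (9.18), Ptpn4 (9.18) and Pias3 (9.12), an inhibitor of STAT3, had summits 112, 87, 7 and 176 bp downstream of a start. The summit of Vegfa (10.1) was 1739 bp downstream. Utrn (10.5), encoding utrophin, had its nearest tabled start 7489 bp downstream of the summit. Vsig8 (10.5) was near the end of its transcript. Lsm12 (10.5), Csnk1a1 (9.12), a casein kinase of Wnt signalling, and Wnt10a (9.12), a Wnt ligand, had no start in the table. Thus 14 of the 20 had a summit within 500 bp of a start, against 145 of all 336 inner peaks (43.2%, 37.8 to 48.6).

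Inner peaks had a neighbouring summit more often than peaks under 500 bp. Another summit of the list lay within 2 kb for 41 of 336 (12.2%, 8.90 to 16.2), against 51 of 978 (5.21%, 3.91 to 6.80). The share was 14.6% for single-gene peaks outside, 9.06% for peaks with ends of several genes within 2 kb and 7.77% for peaks deeper in genes. It was 8.53% of all peaks. A pair that spans 2 classes counts once in each, which raises the share of the smaller class more. In 13 of the 41 the neighbour was a further summit of the same peak, 97 to 407 bp away, and in 28 it belonged to another peak. Of the 330 genes, 29 (8.79%) had more than 1 peak inside or within 2 kb. The same share is not given here for other genes, so it only describes this set. Foxl2, a forkhead factor of the ovary, and Lrrc8d, part of the anion channels that respond to cell swelling, had 3.

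For 8 genes the second peak was outside the same gene, so that the 2 peaks stood on either side of the boundary, 795 to 1866 bp apart with a median of 836 bp. These pairs were picked out after their values were seen. Ctnnb1, encoding β-catenin, had summits 41 bp outside (score 7.01) and 1023 bp inside (4.26). Elmo1, an activator of Rac, had them 16 bp outside (2.77) and 849 bp inside (7.01). Chsy1, an enzyme of chondroitin synthesis, had them 344 bp outside (5.41) and 638 bp inside (2.49). The pair of Foxo1 was the widest, with summits 316 bp outside and 1550 bp inside and a score of 3.17 for both, a value that 75.9% of the inner peaks reached or passed. In 10 further genes the second peak was under 500 bp inside, 483 to 2046 bp away. Foxq1, a forkhead factor, had a summit 2 bp inside one end (10.9) and an inner one (3.85) that was 1516 bp from it and 1288 bp from the other end.

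Both peaks were inner ones in 6 genes. Their spacing was 454 bp in Rdx, which encodes radixin, a linker of membrane and actin, and 527 bp in Ldlrad4, an inhibitor of TGF-β signalling. It was 635 bp in Mzf1, a zinc finger factor of myeloid cells, 692 bp in Foxl2, 725 bp in B3gnt2, a glycosyltransferase, and 846 bp in the predicted gene Gm34296. The scores within such a gene differed. Rdx had 6.04 and 2.27, Mzf1 6.04 and 4.29, and Ldlrad4 5.98 and 5.26. Inner peaks with several summits numbered 13 (3.87%), near the 94 of 2204 (4.27%) of all peaks. In 6 of the 13 the lowest-coordinate summit was also the one with the highest score. Vdac1, the outer-membrane channel of mitochondria, was an exception, with 7.42 at the inner summit and 17.1 at the other, 366 bp away. Mdm2, the ubiquitin ligase of p53, had 2 summits (7.53 at the inner one), and Gna11, a G protein subunit, had 3 with a highest score of 7.996. Mbp on chromosome 18 had 6 summits with a highest score of 4.65.

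The 31 inner peaks at transcript ends lay in shorter genes. The median gene length was 5331 bp, against 57306 bp for inner peaks within 500 bp of a start and 46350.5 bp for those farther downstream of one. In 14 of the 31 the gene was under 5 kb long, so the peak was near both ends. Lengths here follow in part from the rule, since in a short gene any inner position is near the end. The 5 with the highest scores were Vsig8 (10.5), Eva1b (8.18), Nkx3-2 (7.996), a homeobox factor of the skeleton, Hmx3 (7.89), a homeobox factor of the inner ear, and Vdac1 (7.42). Their genes were 7780, 4167, 2738, 4496 and 28547 bp long. Several short genes of development were among the rest, chosen after their values were seen. Hes5, a Notch target, had a score of 6.11 with the summit 735 bp from its start, Tlx3 had 3.17 at 2078 bp, Nkx2-3 had 3.06 at 2405 bp, and Foxa2, a factor of endoderm, had 2.51 at 1564 bp. Prkag2, a regulatory subunit of AMPK, was unlike these: its summit (3.76) was 879 bp from the transcript end and 44895 bp from the nearest start.

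An inner peak was found in 330 of 21900 protein-coding genes (1.51%), or in 1.62% of the 20311 nuclear genes of at least 1000 bp that could hold one. The gene groups below were drawn mostly by symbol stems and are partial samples of the families they are named for, so their counts hold for the listed genes only. Against 1.51%, a list of homeobox, Sox, Pax, T-box and forkhead factors had 12 of 188 (6.38%, 3.34 to 10.9). Its stems missed Nkx symbols with a hyphen, and with those counted, an alternative added after the data were seen, the list had 16 of 202 (7.92%, 4.60 to 12.5). Hmx3 (7.89), Eomes (3.17) and other homeobox or T-box genes with inner peaks were also outside it. Genes outside the lists that had no inner peak were not counted, here or below, so the shares of whole families are not known. The highest scores among the 12 were those of Foxb1 (7.89), Hoxd3 (5.63), Pou2f2 (5.63), a POU factor of lymphocytes also known as Oct-2, Onecut3 (5.41) and Foxq1 (3.85). A list of protein phosphatases and their subunits had 8 of 127 (6.30%, 2.76 to 12.04), led by Ptpn4 (9.18), Ppp1r16b (8.79), Ppm1b (4.93), Ptpn5 (4.54) and Ppp4r1 (4.26). The Wnt, Notch, Hedgehog, TGF-β and FGF list had 7 of 117 (5.98%, 2.44 to 11.9), without the ligands Shh (3.66) and Gdf7 (2.81), which had inner peaks but were not on it. It held the ligands Wnt10a (9.12), Wnt10b (6.63), Fgf8 (3.50) and Bmp8a (3.50), the target Hes5 (6.11) and the effectors Ctnnb1 (4.26) and Tcf7l2 (4.22). In these 3 lists the interval lay above 1.51%. They also held more genes with a peak of any class inside or within 2 kb, 39, 25 and 26 genes, or 20.7%, 19.7% and 22.2% against 10.6% of all genes. Of the genes with any peak, those with an inner one were 30.8% (17.0 to 47.6), 32.0% (15.0 to 53.5) and 26.9% (11.6 to 47.8), against 14.2% (12.8 to 15.7) of all such genes.

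Lists close to the T cell and metabolic setting of the study were small, with 2 or 3 inner-peak genes each and wide intervals. Genes of T cell identity and receptor signalling had 2 of 36 (5.56%, 0.680 to 18.7). These were Cbl (6.78), the ubiquitin ligase that dampens receptor signalling, 298 bp downstream of its start, and Nfatc3 (5.11), a calcium-regulated factor, 188 bp downstream. Memory, effector and exhaustion factors had 3 of 58 (5.17%, 1.08 to 14.4): Hic1 (3.54), a repressor of tissue-resident cells, Foxo1 (3.17) as well as Eomes (3.17), a T-box protein that guides CD8+ effector and memory fates, 864 bp downstream of its start. FoxO, AMPK and mTOR genes had 2 of 41 (4.88%, 0.596 to 16.5), Prkag2 and Foxo1. Ppargc1a, the coactivator of mitochondrial biogenesis, was not among the inner peaks, since its summit lay 2190 bp from the boundary. This summit was not close to a tabled start of the gene either. The nearest one was downstream of it, farther away than the 106798 bp of Dlgap4. Nuclear receptors had 3 of 47 (6.38%, 1.34 to 17.5). Ppara (6.78), the receptor for fatty acids that drives ketogenesis in liver, had its summit 144 bp upstream of its start, Nr1d2 (6.04), a clock repressor, 512 bp downstream, and Nr2f6 (3.66) near its transcript end. In each of these lists the interval included 1.51%.

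Ketone body, gluconeogenesis and glycogen genes had 0 of 28, so the share could reach 10.7% by 3 counts and 12.3% by the exact interval. Mitochondrial respiration, ribosome and import genes had 2 of 223 (0.897%, 0.109 to 3.20), Mrpl23 and Vdac1. Cytokines, chemokines and their receptors had 0 of 223, allowing up to 1.35% by 3 counts and 1.64% by the exact interval, which includes 1.51%, and 7 of these genes had a peak of another class. Autophagy and lysosome genes had 0 of 98 (up to 3.06% by 3 counts, 3.69% exact) and the ubiquitously expressed genes 0 of 24 (up to 12.5% and 14.2%). None (0) of 1460 olfactory and vomeronasal receptor genes had an inner peak, allowing up to 0.205% by 3 counts and 0.252% exact, and their median length of 951 bp is under the 1000 bp a gene needs to hold one. A peak of any class inside or within 2 kb was found for 1 of the 1460 genes (0.068%), and the part of gene length was not tested. The leukocyte surface list had 1 of 208, Sema4d (6.08), a semaphorin of lymphocytes.

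Chromatin and RNA genes were the other larger groups. Chromatin remodellers, Polycomb and cohesin genes had 4 of 92 (4.35%, 1.20 to 10.8). They were Pcgf5 (8.07), a Polycomb subunit, Cbx1 (5.51), which encodes the heterochromatin protein HP1β, Ino80 (3.51) and Chd8 (2.096), both ATP-dependent remodellers. Histone methylation enzymes had 3 of 83, which were Phf2 (5.63), a demethylase of H3 lysine 9, Kmt5b (4.54) and Setd7 (4.22), both methyltransferases. Among acylation genes 1 of 44 had an inner peak, Brd1 (5.98), a scaffold of acetyltransferase complexes. RNA-binding, splicing and helicase genes had 7 of 189 (3.70%, 1.502 to 7.48), with Rbm6, Rbm47, Igf2bp3 (7.89), Prpf4b (4.22) and Elavl3 (3.33) highest. Ubiquitin genes had 9 of 417 (2.16%), among them Trim27, Hectd2 (8.34), Rnf138 (4.54), Fbxl20 (3.51) and Trim37 (3.50). Vesicle trafficking had 6 of 315 (1.90%), with Ap5z1 (5.98), Sec24a (3.50) and Vps13b (3.50) highest. These shares had intervals that reached 1.51%.

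The intervals of the remaining lists included the share of all genes. Cell cycle and DNA repair genes had 3 of 194: Mdm2, Cdk8 (4.70), a kinase of the Mediator complex, and Cdkn2c (4.22), a cyclin-dependent kinase inhibitor. Zinc finger factors had 5 of 502 (0.996%), which were Zfhx4 (6.46), Zbtb7a (5.12), Klf1 (4.26), the erythroid factor, Zbtb44 (3.33) and Zfp846 (2.51). Ribosomal and translation genes had 3 of 170, Eif4b (5.41), Rpl38 (2.51) and Rps27l (2.51). Solute carriers had 4 of 389, which were Slc47a1 (4.54), Slc11a2 (4.22), Slc8a3 (2.49) and Slc35f5 (2.12). The list of small GTPases and their regulators, which does not hold Tagap1, Vav2, Sipa1l3 or Rabgap1l, had 2 of 137, Elmo1 (7.01) and Arhgap5 (3.85). The list of MAP kinase and dual-specificity phosphatase genes had 1 of 73, Map3k10 (4.59).

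**Figure D5:**
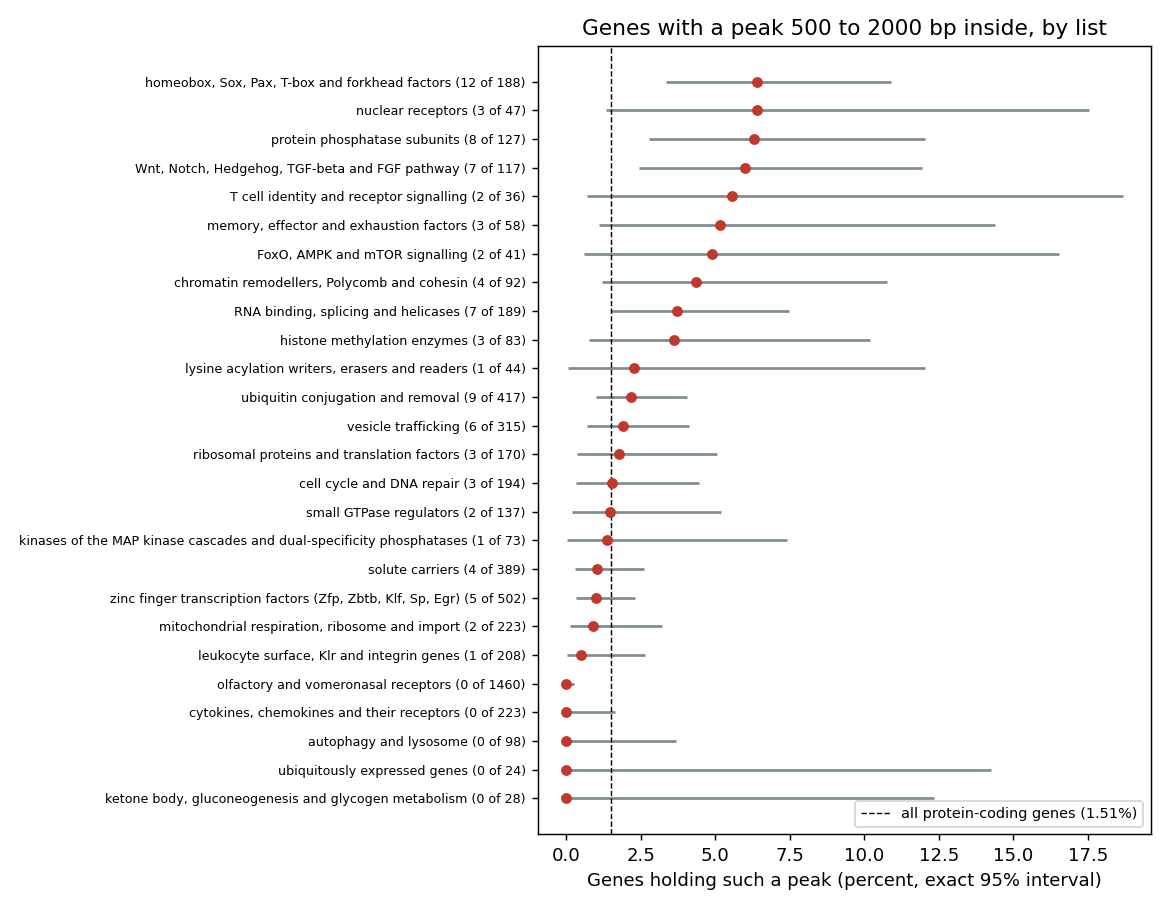
Percent of the genes of each list that hold an inner peak (points, with exact 95% intervals as bars), for lists of at least 20 genes, which are partial samples of the families named. The dashed line is the share of all protein-coding genes, 1.51%. The intervals of 3 lists lie above it: homeobox and related factors, protein phosphatases and their subunits (labelled as subunits), and the Wnt to FGF pathways.

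The labelled cell type could not be checked well from this class of peaks. Of 12 CD8+ T cell markers 1 had an inner peak or any other, Eomes, and Cd3e, Cd8a and Cd8b1 had none (0). Markers of B cells (0 of 10), myeloid cells (0 of 12) and CD4 helper and regulatory T cells (0 of 9) had no peak of any class inside or within 2 kb, and 1 of 9 NK cell markers had one, again Eomes.

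Autosomes differed little in inner peaks per gene and X held few. From 1.06% of genes (chromosome 14) to 2.03% (chromosome 3) held one, with 327 of 20665 (1.58%, 1.42 to 1.76) over all autosomes. On X it was 2 of 966 (0.207%, 0.0251 to 0.746): Tsc22d3 (5.63), a glucocorticoid-induced factor, with its summit 907 bp downstream of a start, and Shroom4 (4.26), an actin regulator, 547 bp downstream. Inner peaks were 2 of the 22 peaks on X (9.09%, 1.12 to 29.2) and 15.3% (13.8 to 16.9) of the autosomal ones; the interval on X included the autosomal share. On Y there was 1, in the predicted gene Gm52481 (5.11).

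An annotated non-coding gene had an end within 2 kb of 68 of the 336 (20.2%, 16.1 to 24.9), against 18.6% (16.2 to 21.2) for peaks under 500 bp inside and 20.01% of all peaks. The share was higher, 46.6% (36.7 to 56.7), for peaks outside genes and over 2000 bp from any end, and lower, 10.1% (6.85 to 14.3), for peaks with ends of several genes within 2 kb. The closest were those beside Gramd4 and Sinhcaf, each with an end 45 bp from the summit. For Eomes the non-coding gene Gm33408 had an end 321 bp away, nearer than the start of Eomes itself. Exons and introns were not analysed here, so a summit could not be assigned to a first exon or a first intron.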

How the data were processed

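The material was the summit list of 1 H3K9bhb ChIP library from treated mouse CD8+ T cells, and the input library was not used. The submitters' processing notes name MACS2 2.1.2 and Bowtie2 2.3.5, beside Trimmomatic 0.39 and FastQC 0.11.8, with build mm10. Caller settings, control, duplicates, blacklists, multi-mapping: not given in the sources used here. For each of 2315 summits (1 bp, in 2204 peaks) the authors deposited a −log10 p or q value, without stating which. Without widths or counts the depth behind a peak is unknown.

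Summits were set against a RefSeq gene table (GRCm38.p6, 21900 protein-coding genes). Strands, starts and promoter windows came from a RefSeq promoter table with 21263 windows of 17492 of these genes (79.87%); of the 64 inner peaks without a start there, 9 were on chromosome 18. Shares of all windows describe this table and not every gene. Intervals are exact (Clopper-Pearson, 95%). With 1 library no p-value is given. There were 31 gene lists, most drawn by symbol stems and none of them complete; 2 of their symbols had no match. The inner peaks and the lists were chosen with earlier results of these data known. Genes named are the 20 highest scores, up to 5 list members by score, those on X, those with several inner peaks or summits, the 5 highest at transcript ends, those at the bounds, Foxo1 and Ppargc1a; others are said to be chosen after their values were seen. The placement was run on 200 simulated summits near the lower-coordinate end of longer nuclear protein-coding genes, with no other end within 2 kb. All 200 were returned to their class, gene and distance. The simulation used the same definitions as the placement. It did not cover short genes, higher-coordinate ends, ends of several genes or summits over 2000 bp from any end. Calculations used scipy 1.17.1, pandas 2.3.3 and matplotlib 3.10.9 under Python 3.11.15, with numpy 2.4.6. The alternatives tried were another summit per peak, a stricter score, other bounds, a wider second-gene window, non-coding ends, merged neighbours and, added after the data were seen, a neighbour's end and hyphenated symbols in a list.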

Additional observations from a re-analysis of the deposited data

How the results depend on the processing

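Of 57 values under 9 alternatives, 2 of them added after the data were seen, 45 stayed within the 95% interval of the value reported or, for counts, within 1.5 times of it. Keeping the upper 50% of peaks by score left 143 inner peaks with a median score of 6.60 and 31 listed genes with one, in place of 336, 4.26 and 86; fewer peaks and a higher floor set these by construction. An inner bound of 250 bp gave 680 peaks and 181 listed genes, with 92.3% at starts and 8.68% with another summit within 2 kb. An outer bound of 1000 bp gave 207 peaks, 56 listed genes and 92.2% at starts. Barring a second gene end within 5 kb gave 92.1% at starts, and merging peaks within 10 kb gave 7.62% with another summit within 2 kb, since merging removes neighbours. The median CpG ratio (0.86) and the share on X (0.595%) stayed within their intervals under the 8 that bear on them. Counting hyphenated Nkx symbols gave 90 listed genes. No paired analysis was possible because the series has 1 ChIP library. Nothing here bears on the spread between cultures, and the reads behind each score were not analysed here.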
